A study of Arabidopsis thaliana with 8 samples.

Results

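Gene expression in germinating seedlings of the Arabidopsis thaliana mutant ahg1-1 was compared with that of the Columbia wild type on the same medium with 0.5 uM abscisic acid (ABA). The comparison took all arrays titled ahg1-1 and all arrays titled as the ABA control, 2 of each, which made 4 of the 8 arrays of the study, and it covered all 22246 probe sets. Each array carried labelled RNA from 1 sample, and a value is the log2 expression of a probe set, so that a difference of 1 is a doubling. The remaining arrays held wild type without ABA (0 uM) and the mutant ahg3-1 on 0.5 uM ABA, again 2 each. All seeds were kept cold at 4 °C for 4 days and then put at 23 °C, in days of 16 h light and nights of 8 h, on plates of MS salts with 2% sucrose, and RNA was taken after 2 days of germination. The ahg1-1 and ahg3-1 mutations lie in different genes of the PP2C protein phosphatases, and both mutants are described in the labels as hypersensitive to ABA.

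ABA is the plant hormone that keeps seeds dormant and holds back germination when water is short. Receptors that bind ABA inhibit most of the clade A PP2C phosphatases, which frees SnRK2 kinases to activate bZIP transcription factors of the seed programme, and AHG1 is a member of that clade that acts mainly in seeds. Genes of late embryogenesis abundant (LEA) proteins, seed storage proteins and oil body proteins are classical targets of this pathway, while genes of the photosynthetic apparatus are switched on as a seedling greens.

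The 2 arrays of a group carry the numbers 1 and 2, and the same numbers occur in every group. The comparison was defined with the replicate number as a block, and it was fitted so. Arrays of the same number deviated from their group means in the same way, with correlations across probe sets from 0.50 to 0.84 over the 6 pairs of groups. Where a difference is given also within number 1 or number 2, it sets 1 array against 1 other. The labels do not state whether a group's arrays stem from separate cultures, so the p-values describe the spread among these arrays, and that spread may be technical. AHG1 and AHG3 have 0 named probe sets, and the mutant labels were therefore not checked against the mutated genes. ahg1-1 without ABA is not analysed here, so a difference that the mutant would show on any medium cannot be told apart from one that needs ABA. All seedlings were collected at 1 time, and an earlier or later stage of germination in ahg1-1 cannot be told apart from a change of expression at the same stage.

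In ahg1-1, 3 probe sets rose relative to wild type on ABA and 0 fell (0%). The largest of these rises belonged to 253894_at, a probe set unnamed here, followed by PDF2.1 (AT2G02120), a plant defensin of the small cysteine-rich secreted peptides, and AT5G07360, which encodes a member of the amidase family. They amounted to 0.0135% of the 22246 probe sets tested, all at an adjusted p of 0.035 (limma with the replicate number as a block, Benjamini-Hochberg adjustment over all probe sets, called below 0.05). Without the block 0 probe sets passed and the lowest adjusted p was 0.61. Below an unadjusted p of 0.05 lay 1917 probe sets with the block (8.62%), 1130 higher and 787 lower in ahg1-1, and 326 without it.

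The probe set 253894_at stood at 2.77 and 3.15 on the wild-type arrays on ABA (numbers 1 and 2) and at 6.36 and 7.58 on the ahg1-1 arrays. It stood at 2.71 and 2.53 in wild type without ABA and at 2.88 and 3.07 in ahg3-1. Both ahg1-1 arrays lay far above the other 6, and those 6 lay close together. The difference between ahg1-1 and wild type on ABA was 4.01 ± 0.30 (SE), or 16.1-fold, at 3.59 within number 1 and 4.43 within number 2. The wild-type values on ABA fell at the 0.23 and 4.42 percentiles of their arrays, whose lowest values were 2.52 and 2.43. Near the bottom of the scale a level is poorly measured, so the size of this difference is uncertain.

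PDF2.1 stood at 5.28 and 5.81 in wild type on ABA and at 7.67 and 8.16 in ahg1-1, beside 3.54 and 4.00 in wild type without ABA and 5.93 and 5.78 in ahg3-1. The ahg1-1 arrays were the highest of the 8, and wild type without ABA the lowest. Its difference was 2.37 ± 0.20, or 5.19-fold, and nearly the same in both numbers (2.39 and 2.35). AT5G07360 stood at 6.43 and 7.00 in wild type on ABA and at 8.55 and 9.17 in ahg1-1, beside 5.61 and 5.80 without ABA and 7.16 and 7.26 in ahg3-1. Here too the ahg1-1 arrays were the highest of the 8 and did not overlap with any other group. Its difference was 2.15 ± 0.18, or 4.43-fold, at 2.12 and 2.17 within the numbers. In the wild type both genes also rose with ABA, PDF2.1 by 1.77 ± 0.20 and AT5G07360 by 1.01 ± 0.18 (limma, adjusted p = 0.0023 and 0.013, beside 12.6% of all probe sets called in that contrast, 6.1% higher and 6.48% lower with ABA). That contrast shares the wild-type arrays on ABA with the comparison of ahg1-1, with the opposite sign.

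**Figure D1:**
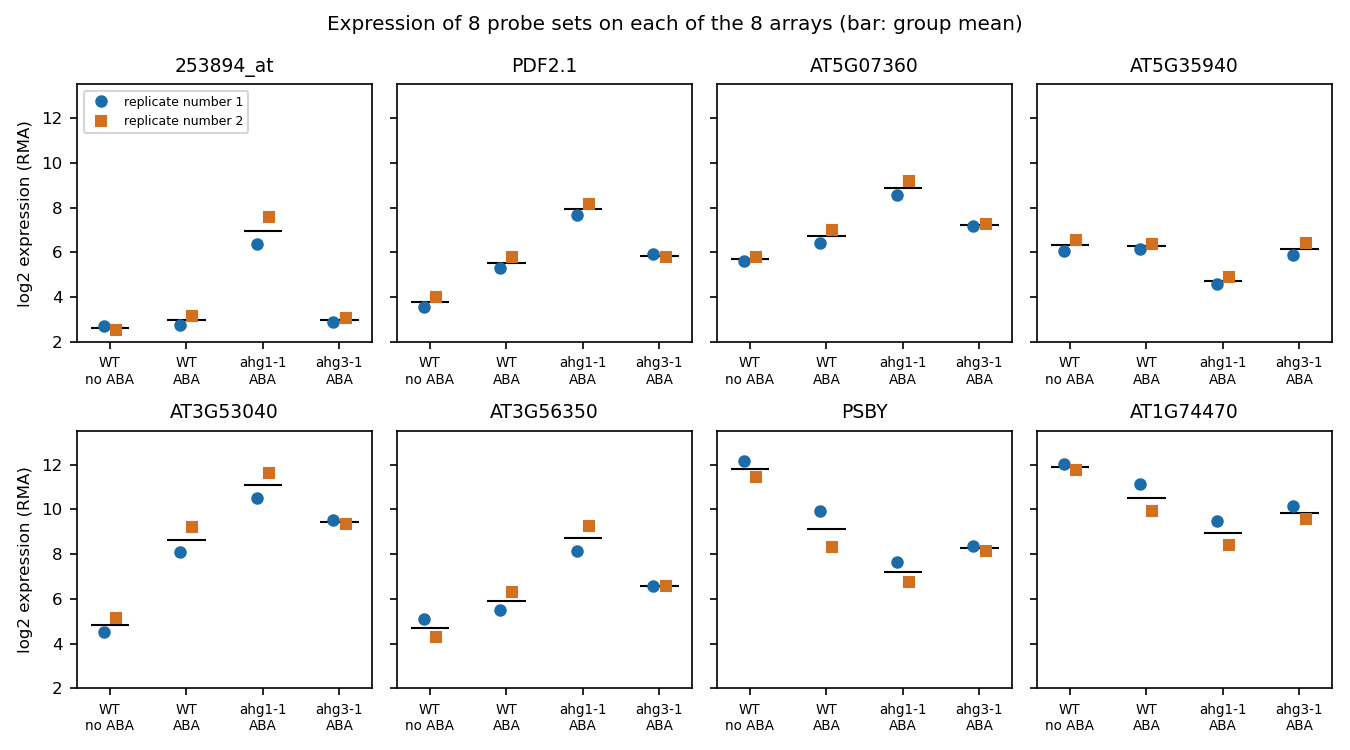
Log2 expression (vertical axis, RMA values) of 8 probe sets on each of the 8 arrays, by group; circles are replicate number 1, squares number 2, and the bar is the group mean. For 253894_at the ahg1-1 arrays lie at 6.36 and 7.58 and all other arrays between 2.53 and 3.15, while PSBY and AT1G74470 are lowest in ahg1-1.

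These calls depended on single arrays. The difference of 253894_at stayed between 3.47 and 4.56 when any 1 of the 8 arrays was left out, and it was called in 5 of those 8 fits. PDF2.1 (2.24 to 2.51) and AT5G07360 (1.98 to 2.31) were each called in 4 of the 8. Without number 1 of wild type on ABA 0 passed and the lowest adjusted p was 0.94, and without number 2 of ahg1-1 0 passed as well. Without number 2 of wild type on ABA 9 passed, all of them lower in ahg1-1, and without number 1 of ahg1-1 1 passed. Leaving out either ahg3-1 array gave 7, and leaving out either wild-type array without ABA gave 20, 15 higher and 5 lower.

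With the 6 arrays on ABA alone the same 20 probe sets passed (0.0899% of those tested, 0.0674% higher and 0.0225% lower), since a group left with 1 array adds nothing to the estimate of the spread. All 3 probe sets called with 8 arrays were among them. Those with 1 gene on the lower side were AT5G54370, AT5G35940, AT1G74470 and AT1G09310, and those on the higher side included AT3G56350, AT5G45690 and AT3G48510, which are described below. With only the 4 arrays of the comparison 253 passed (1.14%), 88 higher (0.396%) and 165 lower (0.742%), in a fit that leaves 1 residual degree of freedom. The 20 probe sets were all among the 253.

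**Figure D2:**
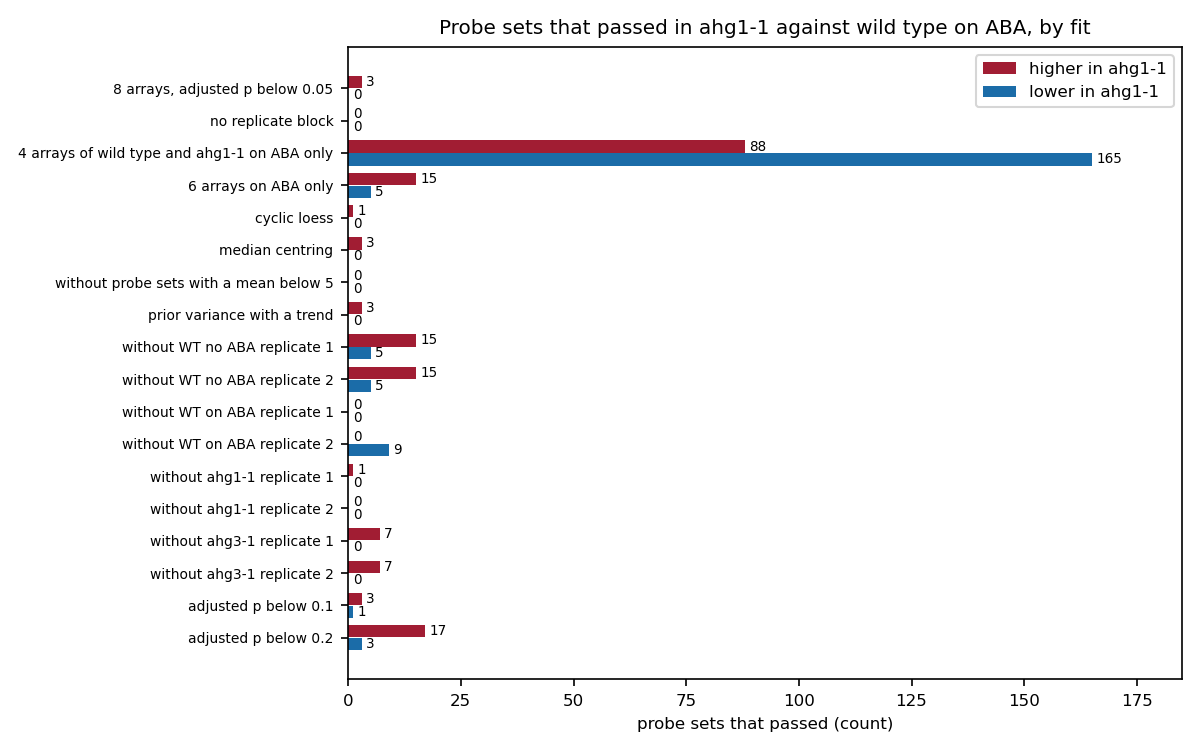
Number of probe sets (horizontal axis) that passed as higher or lower in ahg1-1 than in wild type on ABA, in each fit (vertical axis). The 8-array fit gave 3 higher and 0 lower, the fit of the 4 arrays alone 88 and 165, and fits without 1 array from 0 to 20 in all.

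Over all probe sets the difference had a median of 0.01 and quartiles of -0.14 and 0.17. It was above 0.72 in the highest hundredth of probe sets and under -0.98 in the lowest, and it ran from -3.78 to 5.02. The differences within the numbers were broader in number 1, with an interquartile range of 0.495 against 0.299 in number 2. They had the same sign in 56.5% of probe sets (31.3% higher and 25.2% lower in ahg1-1), and their correlation across probe sets was 0.39. The 4 arrays did not overlap between the genotypes in 2439 probe sets on the higher (11%) and 1927 on the lower side (8.66%), 19.6% together.

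Differences of more than 1 were more frequent within number 1 than within number 2, and in each number more of them were lower than higher. Within number 1, 240 probe sets were higher and 527 lower in ahg1-1 by more than 1, and within number 2, 81 and 198. By more than 2, 28 were higher and 75 lower within number 1, while within number 2 more were higher (25) than lower (15). Where both numbers had to exceed 1 without overlap of the arrays, 49 were higher and 35 lower (0.22% and 0.157%, 0.378% together), and beyond 2 in both numbers 17 were higher and 1 lower (0.0764% and 0.0045%, 0.0809% together). Of the 49 higher probe sets 20 were in the top quartile of mean level, 20 in the third, 8 in the second and 1 in the lowest, and of the 35 lower ones 25, 5, 5 and 0.

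**Figure D3:**
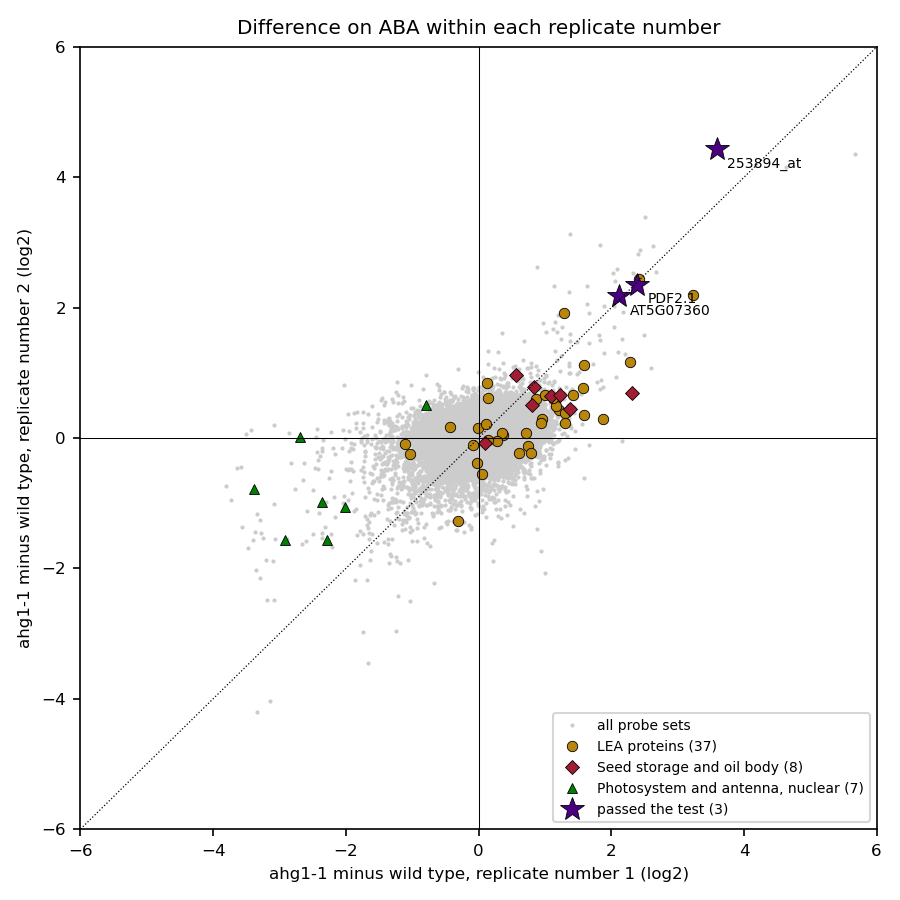
Difference of ahg1-1 minus wild type on ABA (log2) within replicate number 1 (horizontal axis) and number 2 (vertical axis) for all 22246 probe sets (grey), with 3 gene lists and the 3 probe sets that passed marked; the dotted line is equality. PDF2.1 (2.39 and 2.35) lies on the line, while photosystem genes lie farther to the left than they lie below 0.

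The genes described next were ranked on these same arrays, by the smaller of their differences within the numbers among genes whose arrays did not overlap, so their agreement between the numbers is how they were chosen. The 14 genes ranked highest on the higher side had differences from 1.48 to 2.79, with adjusted p from 0.035 to 0.38 by limma with the block, and only PDF2.1 and AT5G07360 passed. The 14 on the lower side had differences from -2.37 to -1.12, with adjusted p from 0.090 to 0.59, and none passed. The last gene inside the ranking on the higher side, AT1G29680, had a smaller difference of 1.37, and the first outside, M17, one of 1.29. On the lower side AT1G14120 closed the ranking at 1.04 and AT1G04680 followed at 1.03. All 28 kept their direction in each alternative fit.

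Among the 14 higher genes, 2 are members of the LEA list used here, whose products are hydrophilic proteins that protect cell structures during drying. AT3G53040 stood at 8.07 and 9.20 in wild type on ABA, 10.49 and 11.64 in ahg1-1, 9.51 and 9.34 in ahg3-1 and 4.51 and 5.16 without ABA. The ahg1-1 arrays were the highest of the 8. Its difference was 2.43 ± 0.31, at 2.42 and 2.44 within the numbers (limma, adjusted p = 0.12). AT3G22490, a seed maturation protein of the LEA class, stood at 6.43 and 8.63 in wild type and 9.66 and 10.83 in ahg1-1. Its wild-type arrays differed from each other by more than 2, and its difference of 2.71 ± 0.55 was 3.23 within number 1 and 2.19 within number 2.

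Genes of enzymes stood beside them. AT3G56350 encodes an iron/manganese-type superoxide dismutase, an enzyme that removes superoxide radicals. It stood at 5.50 and 6.31 in wild type and 8.14 and 9.25 in ahg1-1. The ahg1-1 arrays did not overlap with wild type or with ahg3-1, which stood at 6.59 and 6.59. The difference was 2.79 ± 0.41 (limma, adjusted p = 0.21), and it was called in the fit of the 6 arrays on ABA. AT1G54870, of the short-chain dehydrogenases and reductases, differed by 2.03 ± 0.37, with 8.81 and 10.06 in wild type and 10.85 and 12.08 in ahg1-1. AT5G01670, an aldo-keto reductase, differed by 1.56 ± 0.32. In the wild type AT1G54870 and AT5G01670 rose with ABA by 4.80 and 3.35 (limma, adjusted p = 5.1e-04 and 0.0012), whereas AT3G56350 differed by 1.21 and did not pass.

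AT5G45690 and AT1G29680, whose products share the DUF1264 domain of oil body-associated proteins, differed by 2.28 ± 0.32 and 1.80 ± 0.37. AT5G45690 stood at 6.42 and 6.63 in wild type and 8.45 and 9.16 in ahg1-1, without overlap. AT1G29680 stood at 6.19 and 6.11 in wild type and 7.55 and 8.35 in ahg1-1. The proline-rich protein gene AT5G43770 differed by 1.67 ± 0.21 and AT3G48510 by 1.48 ± 0.19 (limma, adjusted p = 0.12 for each). AT3G48510 had the same difference in both numbers (1.48 and 1.47), with 7.79 and 6.95 in wild type and 9.27 and 8.41 in ahg1-1. AT1G54860 (1.98 ± 0.27), AT2G33520 (1.84 ± 0.33) and AT4G25580 (1.70 ± 0.35) completed the 14. AT1G54860 and AT1G54870 are neighbours in the gene table, the only neighbouring pair among the 18 genes that were higher by more than 1 in both numbers without overlap. Of the 14 genes, 12 rose with ABA in the wild type and 0 fell, beside 6.1% and 6.48% of all probe sets, in the contrast that shares the wild-type arrays on ABA.

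On the lower side, genes of the photosystems and of chlorophyll synthesis are given first. PSBY, a small subunit of photosystem II, stood at 9.93 and 8.34 in wild type on ABA, 7.64 and 6.77 in ahg1-1, 8.38 and 8.16 in ahg3-1 and 12.18 and 11.44 without ABA. The ahg1-1 arrays were the lowest of the 8 and the untreated arrays the highest. Its difference was -1.92 ± 0.29, at -2.28 and -1.57 within the numbers (limma, adjusted p = 0.21). PSAE-1, a stromal subunit of photosystem I, stood at 10.21 and 7.69 in wild type and 7.29 and 6.12 in ahg1-1, a difference of -2.24 ± 0.42 that was -2.92 within number 1 and -1.56 within number 2. PORB, a protochlorophyllide oxidoreductase of chlorophyll synthesis, stood at 9.44 and 7.23 against 7.13 and 5.86, a difference of -1.84 ± 0.79. In PSAE-1 and PORB the gap between the wild-type arrays was wider than the difference itself.

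AT1G74470, a geranylgeranyl reductase that supplies the phytol tail of chlorophyll, stood at 11.12 and 9.94 in wild type and 9.47 and 8.39 in ahg1-1, with a difference of -1.60 ± 0.24 that was even between the numbers (-1.65 and -1.54). It was called in the fit of the 6 arrays. AT5G19940, of the plastid lipid-associated fibrillins, differed by -1.52 ± 0.21 (limma, adjusted p = 0.16). ALDH11A3, the non-phosphorylating glyceraldehyde-3-phosphate dehydrogenase of the cytosol, differed by -1.28 ± 0.36.

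The lowest adjusted p on the lower side belonged to AT5G35940, of the jacalin-type lectins, which bind sugars. It stood at 6.17 and 6.36 in wild type on ABA, 4.57 and 4.89 in ahg1-1, 5.90 and 6.42 in ahg3-1 and 6.06 and 6.56 without ABA. The 6 arrays other than ahg1-1 lay close together and all above ahg1-1. Its difference was -1.53 ± 0.16, at -1.60 and -1.46 within the numbers (limma, adjusted p = 0.090), and it passed with the 6 arrays on ABA. With ABA alone it differed by -0.05 in the wild type. AT5G54370 differed by -1.47 ± 0.32, with 5.73 and 5.30 in wild type on ABA, 4.08 and 4.01 in ahg1-1 and 5.63 and 5.36 in ahg3-1. With ABA alone AT5G54370 differed by -2.65 ± 0.32 in the wild type (limma, adjusted p = 0.0028), in the contrast with shared arrays.

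Of the remaining genes of the lower side, AT4G23670 and AT3G26450, of the Bet v 1 family of small ligand-binding proteins, differed by -2.37 ± 0.71 (-1.75 and -2.98 within the numbers) and -1.78 ± 0.59 (-2.41 and -1.14). AT1G09310, of the DUF538 family, stood at 11.82 and 10.34 in wild type and 10.03 and 8.39 in ahg1-1, a difference of -1.87 ± 0.56. AT1G14120, of the 2-oxoglutarate-dependent oxygenases, differed by -1.77 ± 0.79, AT5G08050 by -1.30 ± 0.26 and PIA1, a phosphatase of the PP2C family outside clade A, by -1.12 ± 0.48. AT1G14120 was uneven between the numbers (-1.04 and -2.49) and PIA1 was not (-1.13 and -1.12). With ABA in the wild type 7 of the 14 fell and 0 rose, beside 6.48% and 6.1% of all probe sets and again with shared arrays.

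Some of the largest differences belonged to probe sets unnamed here. On the higher side 248125_at stood at 4.59 and 7.93 in wild type and 10.27 and 12.28 in ahg1-1, a difference of 5.02 ± 0.84 (limma, adjusted p = 0.29). The wild-type arrays were far apart, yet neither reached the ahg1-1 arrays. The probe set 253904_at stood at 5.84 and 7.00 against 10.47 and 11.17, a difference of 4.40 ± 0.49 (adjusted p = 0.11). On the lower side 252430_at, 264147_at and 248200_at differed by -2.79 ± 0.51, -2.01 ± 0.30 and -1.76 ± 0.52. Of these 264147_at was higher in wild type with ABA (9.06 and 8.29) than without it (7.07 and 7.31), and ahg1-1 on ABA stood at 7.20 and 6.12.

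The 28 ranked genes were set beside ahg3-1, which shares the wild-type arrays on ABA with ahg1-1. Against wild type the 14 higher genes differed by 0.23 to 1.46 in ahg3-1 and the 14 lower genes by -1.27 to -0.02. In the direct comparison of the mutants, which shares the ahg1-1 arrays, all 28 had the sign of their ahg1-1 difference within both numbers. The higher genes were 0.63 to 2.11 above ahg3-1 and the lower genes 0.61 to 1.59 below it on the log2 scale, and 11 and 6 of them had an unadjusted p below 0.05. Over all probe sets that share was 2.61%, with 1.24% on the higher and 1.37% on the lower side. These genes were chosen on the ahg1-1 arrays, so a distance from ahg3-1 in the same direction is favoured by the choice, and 0 of the 28 passed over all probe sets.

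Only 253894_at passed between the mutants, at 4.00 higher in ahg1-1 (limma, adjusted p = 0.044, 0.0045% of probe sets). PDF2.1 was 2.06 higher than in ahg3-1 (limma, adjusted p = 0.14) and AT5G07360 1.65 higher (adjusted p = 0.16). AT5G35940 differed by -1.43 (adjusted p = 0.16). The mutants were closest in AT5G08050 on the lower side (-0.61) and in AT5G01670 on the higher side (0.63). In ahg3-1 against wild type 0 probe sets passed (0%).

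**Figure D4:**
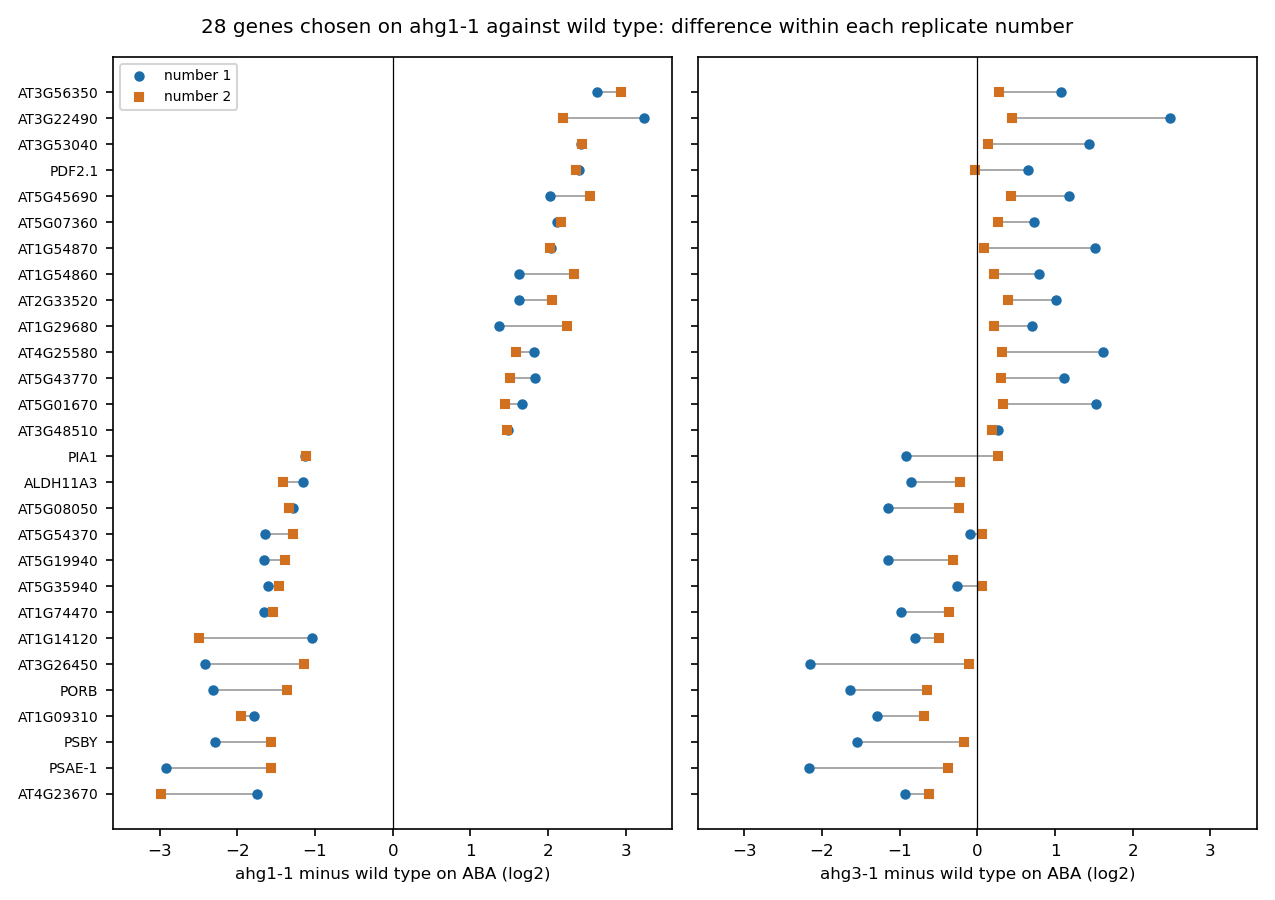
Difference from wild type on ABA (log2, horizontal axis) for the 28 ranked genes (vertical axis) in ahg1-1 (left) and ahg3-1 (right), within replicate number 1 (circles) and number 2 (squares). In ahg1-1 the genes were chosen so that both numbers lie on 1 side of 0; in ahg3-1 number 1 lies farther from 0 than number 2 for all 28.

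Gene lists are described by their counts and medians, beside a median of 0.01 over all probe sets and 31.3% higher and 25.2% lower in both numbers. Below an unadjusted p of 0.05 lay 5.08% of all probe sets on the higher and 3.54% on the lower side. Only 1 list member passed over all probe sets, PDF2.1 of the defensins. In ahg3-1, against the same wild-type arrays, the medians were 0.46 for LEA and 0.56 for storage and oil body proteins. They were -1.27 for nuclear photosystem genes and -1.14 for the Calvin cycle, so these 4 lists moved the same way in both mutants. The median differences of ahg1-1 minus ahg3-1 were 0.10, 0.16, -0.43 and -0.02 in that order. For tubulins the ahg3-1 median was 0.08, against -0.41 in ahg1-1. A lower summed signal of a gene in whole seedlings can come from fewer cells that express it or from less RNA per cell, which cannot be told apart here.

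For LEA proteins 37 of 53 listed loci had a named probe set. Their median difference was 0.49, at 0.79 within number 1 and 0.24 within number 2, and 24 were higher and 5 lower in both numbers. An unadjusted p below 0.05 was reached by 14 on the higher and 1 on the lower side, and 0 passed. Members ran from -0.79 (AT5G60530) to 2.71 (AT3G22490). Among genes with moderate differences AT2G23110 stood at 7.02 and 9.18 in wild type and 8.61 and 10.30 in ahg1-1 (1.36 ± 0.31), and LEA4-5 at 11.63 and 12.56 against 12.84 and 12.99 (0.82 ± 0.21). In AT2G23110 the arrays overlapped across the numbers, since number 2 of wild type exceeded number 1 of ahg1-1. M17 stood at 7.35 and 7.18 against 8.64 and 9.09, a difference of 1.60 ± 0.48 that was larger within number 2. AT3G02480 and AT3G15670, close to the top of the scale in wild type on ABA (13.03 and 13.82, and 12.26 and 13.75), differed by 0.21 ± 0.31 and 0.31 ± 0.32. Without number 1 of wild type on ABA the median of the list was 0.25.

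Dehydrins and cold-regulated members of the list did not share 1 direction. LTI30, a dehydrin, differed by 0.86 ± 0.24 and COR15A, a chloroplast-targeted LEA protein, by 0.49 ± 0.20. COR47, another dehydrin, differed by -0.60 ± 0.54, at -1.11 and -0.09 within the numbers, and COR15B by -0.09 ± 0.16. EEL, the only bZIP factor of the ABA pathway with a named probe set, stood at 6.62 and 7.54 in wild type and 7.32 and 7.88 in ahg1-1, a difference of 0.52 ± 0.18 that did not pass (limma, adjusted p = 0.54).

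For seed storage and oil body proteins 8 of 22 loci were measured, with a median of 0.84, at 0.96 and 0.65 within the numbers. Of these 7 were higher in both numbers, the same number had an unadjusted p below 0.05, and 0 passed. OLEO3, an oleosin that coats oil bodies, stood at 10.84 and 11.57 in wild type and 11.93 and 12.22 in ahg1-1, without overlap, a difference of 0.86 ± 0.18. The oleosin-family gene AT3G18570 stood at 9.82 and 9.35 against 11.05 and 10.02 (0.95 ± 0.21), and AT2G18540, of the cupin storage proteins, at 3.63 and 4.13 against 4.47 and 4.92 (0.81 ± 0.23). PAP85, a vicilin-like storage protein, had the largest difference at 1.50 ± 0.60, but its wild-type arrays stood at 9.32 and 12.06, and the difference was 2.32 within number 1 and 0.69 within number 2. AT1G03890, another cupin, differed by 0.01. The median was 0.47 without number 1 of wild type on ABA and 1.08 without number 2.

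For nuclear genes of the photosystems and their antennae the median over 7 measured genes was -1.67, at -2.36 within number 1 and -0.98 within number 2. Lower values in both numbers were found for 5, the other 2 being LHCB4.1 and LHCB4.3 of the light-harvesting antenna, and 5 had an unadjusted p below 0.05 on the lower side. The genes ran from -2.24 (PSAE-1) to -0.14 (LHCB4.3). The wild-type arrays on ABA stood apart here, with a median over the 7 genes of 10.21 on number 1 and 7.57 on number 2, against 7.29 and 6.12 in ahg1-1. The value of number 2 of wild type was thus close to number 1 of ahg1-1. LHCB4.2, an antenna protein, showed this most, at 10.59 and 6.20 in wild type and 7.19 and 5.41 in ahg1-1, while PSAN, a lumenal subunit of photosystem I, stood at 8.01 and 5.84 against 5.65 and 4.86 (-1.67 ± 0.41). Without number 1 of wild type on ABA the median was -0.84 and without number 2 it was -2.50.

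The Calvin cycle list had 3 of 19 loci measured. PRK, the phosphoribulokinase, stood at 8.33 and 6.52 in wild type and 6.03 and 5.54 in ahg1-1, a difference of -1.65 ± 0.38 without overlap, at -2.30 and -0.99 within the numbers. RCA, the activase of Rubisco, stood at 10.56 and 7.24 against 7.92 and 6.60, also -1.65 but with an SE of 0.55 and with overlapping arrays, at -2.65 and -0.65 within the numbers. Without number 1 of wild type on ABA PRK differed by -0.92 and RCA by -0.53, and without number 2 by -2.37 and -2.76. SBPASE, the sedoheptulose bisphosphatase, differed by -0.40 ± 0.18. For chlorophyll synthesis 5 of 18 loci gave a median of -0.32 (-0.20 without number 1 of wild type on ABA), with PORB at -1.84 and HEMA2, a glutamyl-tRNA reductase of its first step, at 0.11. The reductase gene AT1G74470, described above with a difference of -1.60, was not on that list and is not part of the median. ATPC1, the gamma subunit of the chloroplast ATP synthase, differed by -0.82 ± 0.21, with 10.21 and 9.84 in wild type and 9.21 and 9.20 in ahg1-1, while its paralogue ATPC2 differed by 0.29 ± 0.15.

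Genes encoded in the plastid genome were measured with 69 probe sets of 1 gene each and had a median of -0.27, at -0.47 within number 1 and -0.07 within number 2. The median was -0.08 without number 1 of ahg1-1 and -0.44 without number 2. Of the 69, 35 were lower and 6 higher in both numbers, and 12 lower and 1 higher had an unadjusted p below 0.05. Among those with the smallest p were petB, of the cytochrome b6f complex, at -0.71 and atpF, of the ATP synthase, at -0.70 ± 0.14. The arrays of atpF overlapped across the numbers, at 6.06 and 8.14 in wild type on ABA and 5.36 and 7.43 in ahg1-1. Without the block the SE of atpF was 1.14. On the nuclear chromosomes the medians lay between 0.01 and 0.03.

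**Figure D5:**
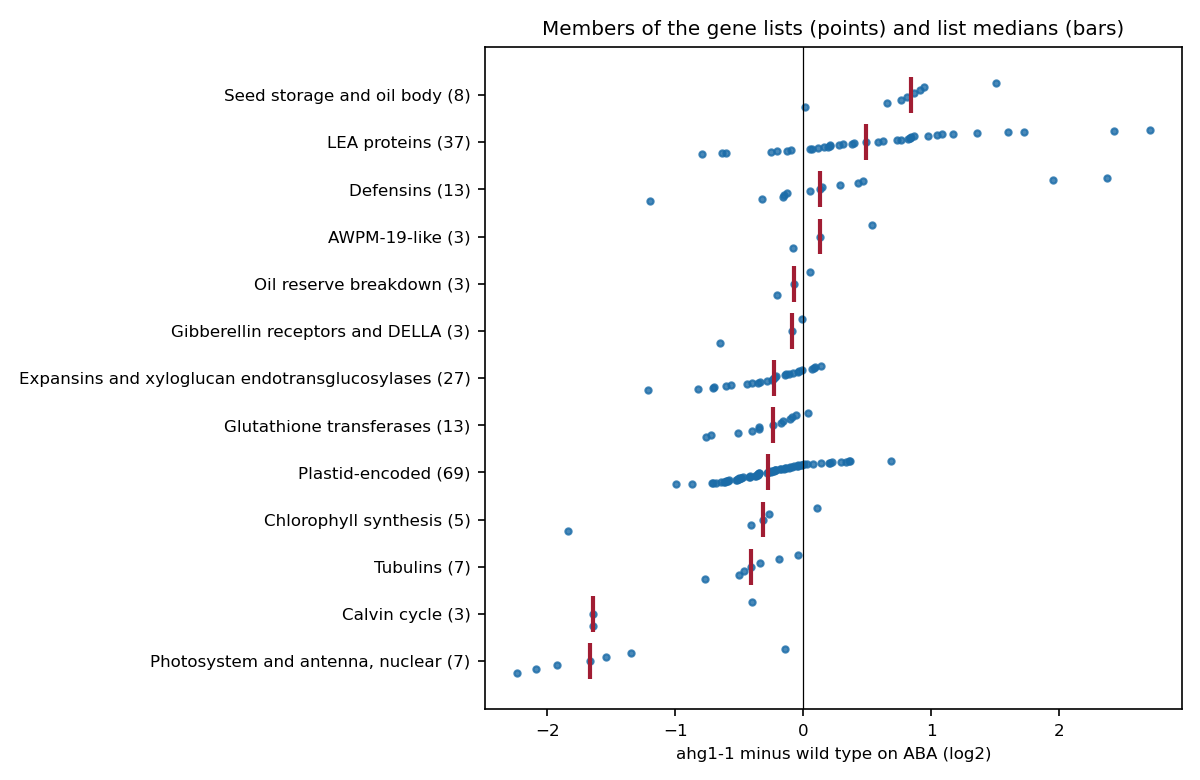
Difference of ahg1-1 minus wild type on ABA (log2, horizontal axis) for the measured members (points) of each gene list with 3 or more of them (vertical axis, number measured in parentheses); red bars are list medians and the vertical line is 0. Medians run from -1.67 for photosystem and antenna genes to 0.84 for seed storage and oil body genes, and points of 1 list are spread vertically for legibility only.

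Defensins were measured with 13 genes and a median of 0.13, which ran from -0.12 (without number 2 of wild type on ABA) to 0.27 (without number 1 of ahg1-1) when 1 array was left out. LCR67, another defensin gene, stood at 5.99 and 8.83 in wild type and 7.88 and 10.85 in ahg1-1. Number 2 of wild type exceeded number 1 of ahg1-1, but within the numbers the difference was even at 1.89 and 2.02 (1.95 ± 0.39, limma, adjusted p = 0.38). LCR68 differed by 0.43 ± 0.18, and PDF2.5 by -1.20 ± 0.56. The family held 6 genes that were higher and 2 that were lower in both numbers.

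Expansins and xyloglucan endotransglucosylases, which loosen and remodel the cell wall, had a median of -0.23 over 27 genes (-0.06 without number 1 of wild type on ABA), with 10 lower and 2 higher in both numbers, 3 at an unadjusted p below 0.05 on the lower side and 0 on the higher. The 7 tubulin genes, subunits of microtubules, had a median of -0.41, and 4 were lower in both numbers. That median was -0.63 without number 1 of ahg1-1. TUB5, a beta-tubulin, stood at 8.99 and 8.95 in wild type and 8.56 and 7.85 in ahg1-1 (-0.77 ± 0.24, limma, adjusted p = 0.53). The 13 glutathione transferase genes, enzymes that conjugate reactive compounds, had a median of -0.24, and 8 were lower in both numbers. It was -0.40 without number 1 and -0.11 without number 2 of wild type on ABA. Of the gibberellin receptors, which promote germination, GID1A, GID1B and GID1C differed by -0.01, -0.65 ± 0.25 and -0.09. The genes of oil breakdown SDP1, ICL and AIM1, a lipase, an enzyme of the glyoxylate cycle and one of fatty acid oxidation, differed by -0.07, -0.21 and 0.05. AT1G04560, of the AWPM-19-like membrane proteins, differed by 0.54 ± 0.18, from 12.04 and 12.51 to 12.73 and 12.89. The other measured genes of that family, AT1G29520 and AT5G18970, differed by 0.13 ± 0.29 and -0.08 ± 0.24.

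The markers of parts of the seedling were few. The root hair expansins EXPA7 and EXPA18 stood at 8.56 and 8.28 on number 1 of wild type on ABA and at 5.82 and 5.14 on number 2, and at 7.71 and 7.38 and then 5.53 and 5.23 in ahg1-1. On these arrays they followed the number more than the genotype, and their differences of -0.57 ± 0.58 and -0.40 ± 0.63 did not pass. In wild type without ABA the numbers lay close together, at 7.73 and 7.87 for EXPA7 and at 7.55 and 7.45 for EXPA18. The seed coat genes DFR and BAN, enzymes of flavonoid synthesis, differed by -0.85 ± 0.86 and -0.27 ± 0.26. XTH19, listed for the endosperm, differed by -0.71 ± 0.23 (limma, adjusted p = 0.54). The root hair and photosystem genes were higher on number 1 than on number 2 of wild type on ABA, and the LEA and storage lists had the opposite order (medians of 8.08 and 9.24, and of 9.57 and 10.72). The part of that gap between the wild-type arrays in the list differences was not tested beyond the fits without 1 array.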

How the data were processed

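The deposited values are log2 expression per probe set and array, made with RMA per the submitters' processing notes; the RMA version is not given in the sources used here, nor is a genome build. Total RNA (16 ug) gave biotin-labelled cRNA, of which 30 ug was hybridised per array. Groups were taken from titles, since the free-text descriptions repeat the same wild-type wording for all 8 samples. In R 4.3.3, limma 3.58.1 was used to fit the 4 groups and the replicate number to the deposited values of all 8 arrays, unfiltered, with 3 residual degrees of freedom, and p-values (two-sided) were adjusted over 22246 probe sets after Benjamini-Hochberg. The block was part of how the comparison was defined, and same-numbered arrays deviated together (r from 0.50 to 0.84 over 6 pairs of groups). The median SE was 0.178 with the block and 0.277 without. The number of arrays limits the precision.

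Probe sets were named through the platform annotation and the TAIR10.1 gene table: 12998 had 1 gene found there, 74 had 1 gene not found, 503 had several and 8671 are unnamed. The members and lists were chosen with earlier results of these data known. Named genes are the called probe sets, the 14 per direction (3 for unnamed probe sets) with the largest smaller difference within the numbers, and up to 3 members per list with the smallest p; other members named were chosen after their values were seen. Lists take the brightest probe set per locus. The plastid list was matched by chromosome, because the gene table uses other locus tags, and 2 peptide deformylases caught by the defensin symbol were removed. The lists of clade A PP2C, ABA receptors and SnRK2, ABA synthesis, gibberellin synthesis, aquaporins, cyclins, ribosomal proteins, heat shock proteins, maturation regulators and shoot markers had 0 named members and were not analysed here.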

Additional observations from a re-analysis of the deposited data

Results flagged for a closer look

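For 253894_at the effect of ahg1-1 differed from that of ahg3-1 by 4.00 (limma with the replicate number as a block, adjusted p = 0.044). It stood at 6.36 and 7.58 in ahg1-1 and at 2.88 and 3.07 in ahg3-1. The ahg3-1 values fell at the 0.90 and 3.73 percentiles of their arrays, so the size of this difference is uncertain too. The contrast shares the ahg1-1 arrays with the comparison against wild type.

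The TUB5 differences of the mutants from wild type had opposite signs within both replicate numbers. In ahg1-1 it differed from wild type on ABA by -0.77, at -0.43 and -1.10 within the numbers, and in ahg3-1 by 0.17 ± 0.24, at 0.05 and 0.30, and neither passed (limma, adjusted p = 0.53 and 0.94). The direct difference between the mutants was -0.94 ± 0.24 and did not pass over all probe sets (limma, adjusted p = 0.99998).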

How the results depend on the processing

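The count of called probe sets moved with most settings. It was 3 with 8 arrays and the block, and 0 with no replicate block. It was 253 with the 4 arrays of the comparison, 20 with the 6 arrays on ABA, 1 after cyclic loess and 0 without the probe sets with a mean below 5 (15122 left), where PDF2.1 and AT5G07360 had an adjusted p of 0.0585 and 253894_at was left out. It was 20 at an adjusted p below 0.2, and 0 to 20 without 1 array. Median centring and a trended prior kept it at 3. The storage and oil body median ran from 0.47 to 1.08 without 1 array. The medians of the LEA (0.25 to 0.69), storage and photosystem lists (-2.50 to -0.84) kept their sign in all fits, and under cyclic loess they were 0.51, 0.83 and -1.74. The defensin median turned to -0.12 without number 2 of wild type on ABA.

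Signs turned for 10 of the 74 named genes, none of which passed. Without 1 array the differences ran from -0.36 to 0.19 for GID1C, -0.18 to 0.17 for GID1A, -0.58 to 0.16 for ICL, -0.30 to 0.16 for SDP1, -1.38 to 0.25 for EXPA7, -1.46 to 0.65 for EXPA18 and -2.02 to 0.33 for DFR, each highest without number 1 of wild type on ABA. They ran from -0.29 to 0.13 for AT5G18970, -0.72 to 0.18 for BAN and -0.039 to 0.14 for AIM1. GID1A turned also without number 1 of ahg1-1 (0.055) and under median centring (0.0058), EXPA18 without number 2 of ahg1-1 (0.0012), and AIM1 under cyclic loess (-0.00717). The cause was not tested.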
